A study of Mus musculus with 86 samples.

Results

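The early response of epithelium below the epidermis was followed in mouse back skin, in the segments labelled PanCK and deep dermis, at 6 h against 0 h after an exposure to UVB light. Members were chosen by these labels alone: 12 of the 85 tissue segments of the series, of which 6 were taken at 6 h and 6 at 0 h, with 2 segments from each of mice 208, 210 and 219 at each time. A segment is an area of a stained tissue section from which GeoMx digital spatial profiling releases and counts the barcodes of probes bound to RNA. The 6 h group was skin of wild-type C57BL/6 females aged 12 to 16 weeks, taken 6 h after a single dose of 500 mJ/cm2 (290 to 320 nm) on the shaved back. The 0 h group came from the same 3 mouse numbers and carried the same shaving, isoflurane anaesthesia and dose, sampled at 0 h. Regions were placed by the operator and split into PanCK-positive and CD45-positive areas, so the choice of regions belongs to the measurement. No group of unexposed skin at 6 h is labelled. An effect of UVB and any other change over the same hours, such as one after anaesthesia, shaving or biopsy, cannot be told apart.

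PanCK is a mixture of antibodies to keratins, the intermediate filament proteins of epithelial cells. Below the epidermis, the epithelium of haired skin is that of the hair follicles with their sebaceous glands. UVB is absorbed mostly in the epidermis, where it damages DNA and starts the release of cytokines and chemokines, and the follicle epithelium is a known source of signals to immune cells and of cells that repair the surface. The labelled cell type and layer could not be checked against marker genes, because no file used here links a probe identifier to its gene. For the same reason no gene or pathway is named, and probes stand under their identifiers as the files give them.

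The counts of the 2 segments that a mouse gave at a time were added, and the mouse was the replicate. At 6 h the sums held 68517, 263625 and 77646 counts in mice 208, 210 and 219, against 113948, 153794 and 59950 counts at 0 h. One segment of mouse 210 at 6 h stood apart by depth, with 197481 counts, 74.9% of that mouse's sum. The other segments of the 12 were shallower, and none lay below 4756.3 counts, the limit for shallow segments. The no template control held 19 counts, none of them on a probe called below. Levels are given in CPM, counts scaled to 1000000 counts in the sum or segment. Scarce probes were not testable at these depths, and 1898 of the 20175 listed probes passed edgeR's filter on low counts. A probe could pass through its 6 h or its 24 h sums alone, so scarce probes that rose had a better chance of being tested than scarce probes that did not. Fewer cells that carry a transcript and less of the transcript in each cell cannot be told apart in such sums.

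At 6 h a small set of probes was called as changed, in both directions and with medians of similar size. Of the 1898 tested probes, 67 were called (3.53%), 31 higher (1.63%) and 36 lower (1.9%) at 6 h than at 0 h. The median log2 fold change was 1.78 among the rises, with a range of 1.31 to 3.27, and -1.61 among the falls, with a range of -2.25 to -1.07. Over all tested probes the median was -0.02. Called means an adjusted p under 0.05 in edgeR's quasi-likelihood F test, with the method of Benjamini and Hochberg applied to the p-values of every tested probe. In the same test 350 of the 1898 probes had an unadjusted p under 0.05, so a probe not called is not shown to be unchanged. At least 4-fold changes were 10 rises and 2 falls. With upper quartile scaling the split was 42 higher and 20 lower, and the median of all tested probes moved to 0.10. DESeq2's test called 28 probes (11 higher and 17 lower), and limma on mean log2(CPM + 1) values called 11 (9 higher and 2 lower). The size of the list depended on the mice, and the number of tested probes changed with it. Without mouse 208, 104 of 3114 tested probes were called, without mouse 210 14 of 1158, and without mouse 219 24 of 3319. Of the 67 calls, 51, 12 and 19 were made again in these 3 fits. Without the deepest segment of mouse 210 at 6 h, 99 probes were called, 57 of them among the 67 and in the same direction.

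**Figure D1:**
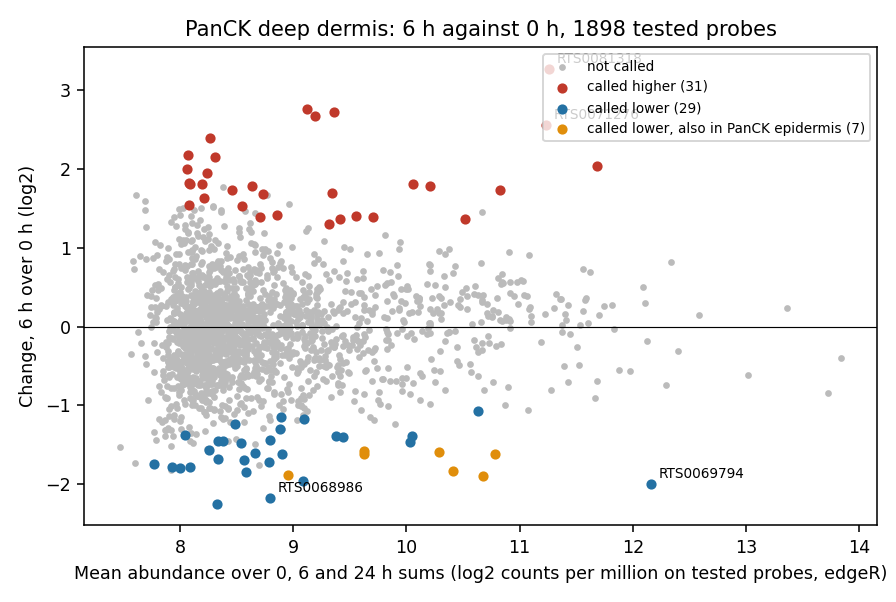
Change of each of the 1898 tested probes in PanCK deep dermis, 6 h over 0 h (log2, vertical axis), against its mean abundance over the 9 sums (log2 CPM over tested probes, horizontal axis). The 31 called rises lie between 1.31 and 3.27 and mostly at low to middle abundance, the 36 called falls lie between -2.25 and -1.07, and the 7 falls also called in PanCK epidermis are marked apart.

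Rises began from scarce probes and falls from more abundant ones. At 0 h the mean level was above the median of all tested probes (120.01 CPM) for 8 of the 31 rises and for 35 of the 36 falls. The risen probes had a median of 241 CPM at 6 h, against 62.7 CPM at 0 h, and their counts made up 1.20% of all counts at 6 h, against 0.272% at 0 h. The fallen probes had a median of 99.3 CPM at 6 h, against 298 CPM at 0 h, and together held 0.591% of counts at 6 h, against 1.74% at 0 h. A fall from a low level could not have been measured at these depths. Scarce probes that rose could pass the filter through their 6 h or 24 h sums alone. The filter and the calls thus favour such a split by starting level, which is given as a description. The 5000 scarcest probes, those with the lowest mean share of counts in CD45 deep dermis and CD45 adipose, averaged 23.8 CPM in PanCK deep dermis at both times. All 31 rises lay above 2 times that level at 6 h, whereas 18 did at 0 h, so the starting level of the others is poorly known. Among the falls, 34 lay above it at 6 h and 36 at 0 h.

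RTS0081318 was the rise with the smallest p. It stood at 1693, 1574 and 966 CPM in mice 208, 210 and 219 at 6 h, against 263, 156 and 33.4 CPM at 0 h. Every mouse at 6 h was above every mouse at 0 h. The log2 fold change was 3.27 (SE 0.37, edgeR adjusted p = 0.000147, 3 mice a side). Over segments it ranged from 703 to 2404 CPM at 6 h (median 1398), against 0 to 620 CPM at 0 h (median 87.7). One segment of mouse 208 at 0 h, at 620 CPM, lay far above the other 0 h segments but still below every 6 h segment. The segment with 0 counts held 18042 counts in all, which allows up to 166 CPM at 3 counts.

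RTS0071276, the second rise by p, stood at 2014, 1601 and 683 CPM at 6 h in mice 208, 210 and 219, against 219, 377 and 117 CPM at 0 h. The groups did not overlap, and mouse 219 was the lowest at both times. Its log2 fold change was 2.57 (SE 0.33, edgeR adjusted p = 0.000438). The segments spanned 575 to 3417 CPM at 6 h (median 1407), against 95.4 to 385 CPM at 0 h (median 224), again without overlap. Both named rises were called in every one of the 13 alternative fits.

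RTS0069794 was the fall with the smallest p and, by its mean level at 0 h, number 4 of the 20175 listed probes in this epithelium. It stood at 832, 1036 and 1043 CPM in mice 208, 210 and 219 at 6 h, against 2440, 4792 and 3786 CPM at 0 h. The mice agreed more closely at 6 h (970 ± 120 CPM, SD, n = 3) than at 0 h (3673 ± 1180 CPM, n = 3). The log2 fold change was -1.99 (SE 0.26, edgeR adjusted p = 0.000438). All 6 segments at 6 h (650 to 1165 CPM, median 1031) were below all 6 at 0 h (2051 to 4851 CPM, median 3531). This call held in 13 of 13 alternative fits.

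RTS0068986, the second fall by p, was scarcer. It stood at 58.4, 125 and 25.8 CPM at 6 h, against 193, 559 and 167 CPM at 0 h, in mice 208, 210 and 219. The mice did not overlap, with mouse 210 the highest at both times. The log2 fold change was -2.18 (SE 0.33, edgeR adjusted p = 0.00124). Behind these levels stood 4, 33 and 2 counts at 6 h, against 22, 86 and 10 counts at 0 h. Without mouse 210 the edgeR adjusted p was 0.135 at a log2 fold change of -2.19, and limma on mean log2(CPM + 1) values gave an adjusted p of 0.296. Segments overlapped, at 0 to 127 CPM at 6 h (median 75.1) against 55.4 to 798 CPM at 0 h (median 199). The segment with 0 counts had 31294 counts in all, which allows 95.9 CPM at 3 counts.

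**Figure D2:**
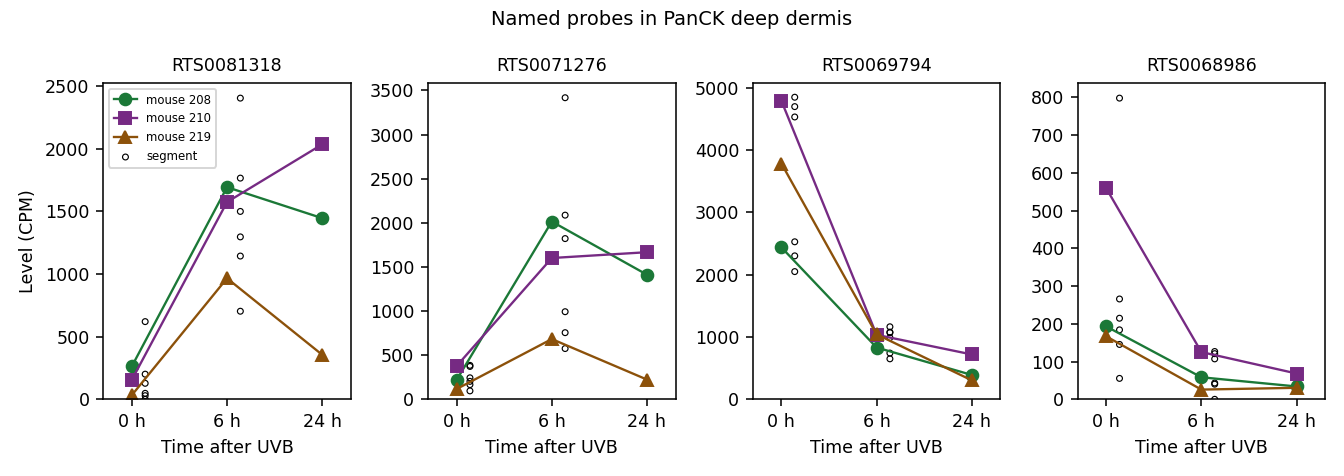
Levels of the 2 rises and 2 falls with the smallest p in PanCK deep dermis at 0, 6 and 24 h after UVB (CPM, linear axes from 0). Lines join the sums of each of the 3 mice, and open circles are the 6 segments at 0 h and the 6 at 6 h; RTS0069794 lies at 832 to 1043 CPM in the 3 mice at 6 h, against 2440 to 4792 CPM at 0 h.

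Among all called probes the mice moved together. Each of the 31 rises was higher at 6 h in 3 of 3 mice with no overlap between times, and 34 of the 36 falls were lower in 3 of 3 mice, with no overlap for 33; the other 2 falls were lower in 2 of 3 mice. Groups that did not overlap were common among all tested probes too, 13.9% in the higher and 9.43% in the lower direction, so these counts describe the called probes and add no test. Over single segments, where 2% of tested probes were separated upward and 0.79% downward, 18 rises and 8 falls had 6 segments wholly apart from the other 6. The median difference of the rises in log2(CPM + 1), 6 h minus 0 h, was 1.71, 1.68 and 2.29 in mice 208, 210 and 219, and that of the falls was -1.60, -1.40 and -1.58. Across all tested probes these medians were -0.00310, 0.03 and 0.15.

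Segments of 1 mouse were about as unlike each other as segments of different mice. Across the tested probes, log2(CPM + 1) values of the 2 segments of a mouse at 1 time correlated with a Pearson r of 0.41 to 0.69 (median 0.50, 6 pairs), and those of different mice at 1 time with an r of 0.25 to 0.68 (median 0.48, 24 pairs). These correlations are across probes, which are not independent replicates, and shallow segments lower them.

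**Figure D3:**
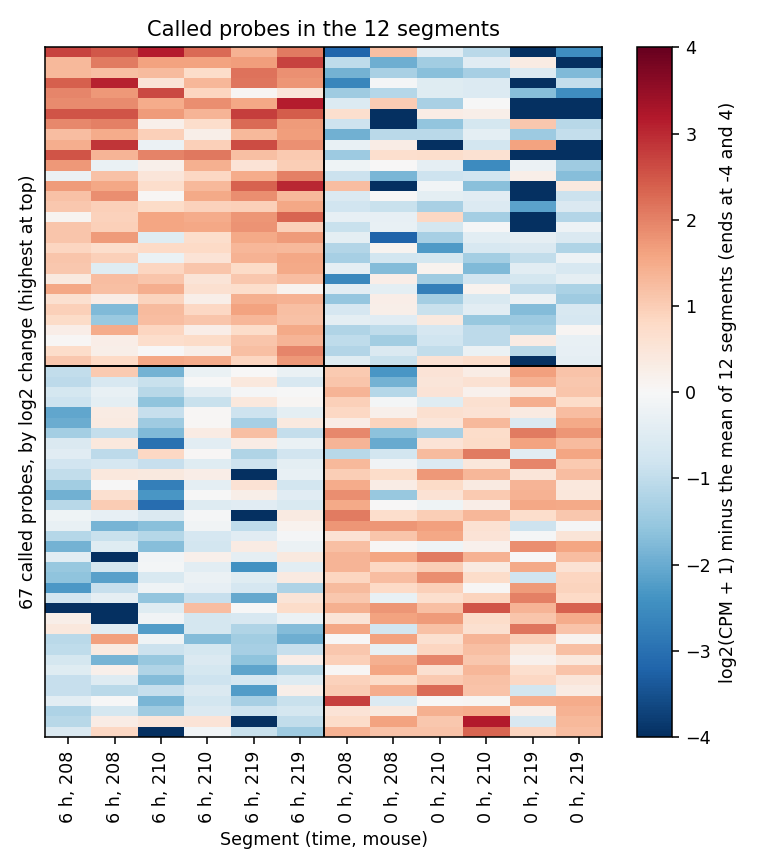
The 67 called probes (rows, ordered by log2 change, highest at the top) in the 12 segments (columns, 6 at 6 h left of 6 at 0 h, labelled by time and mouse), coloured by log2(CPM + 1) minus the mean of the row. The 31 rises above the line are mostly red at 6 h and the 36 falls below it mostly blue, and dark blue cells beyond the scale are mostly segments with no count.

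The PanCK epidermis of the same biopsies was set beside the deep dermal epithelium to ask which early changes were peculiar to the deeper layer. Fitted alone, PanCK epidermis had 50 called probes of 6076 at 6 h (0.823%). Of the 31 deep dermal rises, 30 were tested there and 3 were called higher (0.329% of tested probes). These 30 had a median log2 fold change of 0.28 in PanCK epidermis (range -0.26 to 1.89), beside 1.78 in PanCK deep dermis. Of the 36 falls, 35 were tested there and 7 were called lower (0.494% of tested probes), and the median was -0.54 beside -1.60. Called probes were chosen for their change in the deep dermis, so smaller values elsewhere are to be read with that choice in mind.

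Tested directly, the 6 h change differed between the layers for 3 of 4268 probes (0.0703%), and all 3 had the higher change in PanCK deep dermis. The direction was not the same in every fit: without mouse 219, 13 of 8072 tested probes were called, 5 higher and 8 lower. RTS0081318 had a log2 difference of 3.39 (SE 0.40, edgeR adjusted p = 1.45e-06). In PanCK epidermis it stood at 361, 483 and 280 CPM at 6 h, against 499, 567.6 and 305 CPM at 0 h, in mice 208, 210 and 219, so that it was lower at 6 h in each mouse, although not called there (log2 fold change -0.18, SE 0.23). At 6 h its mean level was higher in the deep dermis, 1411 ± 390.04 CPM, than in the epidermis, 375 ± 102 CPM, whereas at 0 h it was lower in the deep dermis, 151 ± 115 CPM, than in the epidermis, 457 ± 136 CPM (SD, n = 3 each). Without mouse 210 the difference was 3.17 and its edgeR adjusted p was 0.0546.

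RTS0071276 differed by 2.26 (SE 0.39, edgeR adjusted p = 0.00208). Its epidermal levels were 326, 387 and 257 CPM at 6 h, against 309, 316 and 277 CPM at 0 h, a log2 fold change of 0.18 (SE 0.24). The times overlapped in the epidermis, unlike in the deep dermis. This difference was not called without mouse 208 (edgeR adjusted p = 0.150), without mouse 210 (edgeR adjusted p = 0.108) or without the replicate block (edgeR adjusted p = 0.2495).

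The third called difference was 1.84 (SE 0.34, edgeR adjusted p = 0.00467), for a probe that averaged 1362 ± 476 CPM at 6 h, against 297 ± 93.7 CPM at 0 h, in PanCK deep dermis. In PanCK epidermis this probe was abundant throughout, at 2357 ± 350 CPM at 6 h, against 2112 ± 37.6 CPM at 0 h (SD, n = 3 each). Its call was lost without mouse 208 (edgeR adjusted p = 0.294) and without the replicate block (edgeR adjusted p = 0.0578). No probe was called with the lower change in the deep dermis (count 0, edgeR's test), where the smallest adjusted p was 0.0551 for RTS0068986, with a difference of -2.45. This probe was scarce in PanCK epidermis, at 55.8 ± 46.2 CPM at 6 h, against 39.4 ± 7.80 CPM at 0 h (SD, n = 3 each), and was not tested there alone. In either direction, 409 probes had an unadjusted p under 0.05.

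Most of the other called probes lay on the same side of the difference without passing its test. For 30 of the 31 rises the difference was above 0 (median 1.49, range -0.47 to 3.39), and for 29 of the 36 falls it was below 0, while the median of all 4268 tested probes was 0.01. Since the same deep dermal sums chose these probes, the counts are a description and not a test. Scaled to the 5000 scarcest probes, the median of all tested probes moved to 0.46 and 29 differences were called, all higher in the deep dermis. In levels, 27 of the 31 rises were higher in PanCK deep dermis than in PanCK epidermis at 6 h, against 5 at 0 h, where among all 1898 tested probes the numbers were 1358 at 6 h and 1039 at 0 h.

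Of the 3 rises that were called in both layers, the 2 with the smallest p, chosen after their values were seen, were RTS0068906 and RTS0078750. RTS0068906 stood at 394, 303 and 644 CPM in PanCK deep dermis at 6 h in mice 208, 210 and 219, against 52.7, 58.5 and 66.7 CPM at 0 h. In PanCK epidermis it stood at 163, 259 and 268 CPM at 6 h, against 49.9, 69.2 and 76.9 CPM at 0 h. Neither layer had any overlap between the times. The log2 fold changes were 2.72 (SE 0.38, edgeR adjusted p = 0.000566) in the deep dermis and 1.89 (SE 0.27, edgeR adjusted p = 0.000170) in the epidermis. RTS0078750 averaged 386 ± 187 CPM at 6 h, against 47.4 ± 16.1 CPM at 0 h, in PanCK deep dermis, and 152 ± 30.6 CPM against 68.6 ± 8.21 CPM in PanCK epidermis (SD, n = 3 each). The direct test between the layers called neither probe (edgeR adjusted p = 0.556 and 0.307), at differences of 0.87 (SE 0.48) and 1.49 (SE 0.55).

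**Figure D4:**
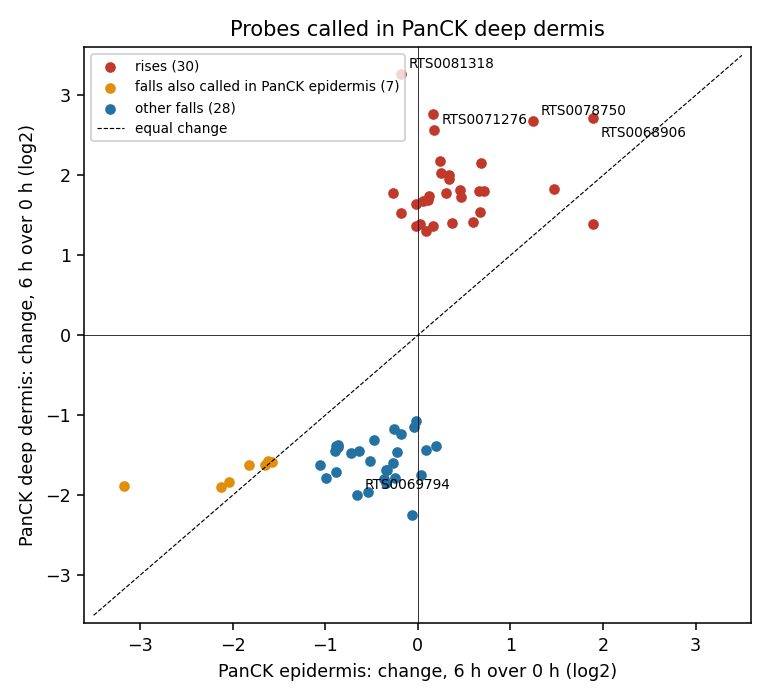
Change at 6 h over 0 h (log2) in PanCK deep dermis (vertical axis) against PanCK epidermis (horizontal axis) for the 65 called probes tested in both layers; the dashed line marks equal change. RTS0081318 and RTS0071276 rise by 3.27 and 2.57 in the deep dermis beside -0.18 and 0.18 in the epidermis, and the 7 falls called in both layers lie near or left of the line.

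The 7 falls called in both layers carry neighbouring identifiers, from RTS0068340 to RTS0068409, a stretch looked at after the values were seen. This stretch of 70 numbers holds 62 listed probes, of which 19 were tested in PanCK deep dermis, 7 were called lower (1.9% of all tested probes) and 0 higher (edgeR's test). The 7 lie in it by construction, since they set its ends. The other 12 changed by -0.94 to 0.73 on the log2 scale and were not called. The sources used here do not state what the numbering of probes follows. In PanCK deep dermis the 7 fell by similar amounts, with log2 fold changes of -1.90 to -1.57 (median -1.62). Their mean levels were 88.8 to 349 CPM at 6 h, against 284 to 1008 CPM at 0 h.

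At the 2 ends of the stretch, RTS0068340 stood at 87.6, 75.9 and 103 CPM in mice 208, 210 and 219 at 6 h, against 281, 338 and 234 CPM at 0 h. RTS0068409 stood at 146, 387 and 515 CPM at 6 h, against 992, 1183 and 701 CPM at 0 h. Neither overlapped between the times over mice, and RTS0068340 did not over segments either. Their log2 fold changes were -1.88 (SE 0.32, edgeR adjusted p = 0.00428) and -1.62 (SE 0.32, edgeR adjusted p = 0.00760). Without mouse 210 the edgeR adjusted p values were 0.0966 and 0.135, and with limma on mean log2(CPM + 1) values they were 0.120 and 0.204. Mouse 219 showed the smaller decline for the 7 probes, with a median difference in log2(CPM + 1) of -0.57, beside -2.19 in mouse 208 and -1.81 in mouse 210. Over mice, 6 of the 7 had no overlap between the times, and over segments 1 had none. The probe that overlapped over mice was not lower in mouse 219, at 167.4 CPM at 6 h against 166.8 CPM at 0 h.

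The same 7 probes were lower in the other compartments with enough counts. In PanCK epidermis they changed by -3.17 to -1.57, and all 7 were called by construction, since the calls there define the set. In CD45 deep dermis, where 4 of 624 tested probes were called at 6 h (0.641%), all 4 were among these 7, and the 6 tested there changed by -2.79 to -1.31. In CD45 epidermis, where 18 of 907 were called (1.98%), 6 of the 7 were called lower (1.43% of tested probes), with changes of -2.76 to -0.86. CD45 adipose had segments from only 2 mice at 6 h (210 and 219), against 3 mice at 0 h. There 1 of 839 probes was called (0.119%), and 51 of the 839 had an unadjusted p under 0.05. Of the 7 shared falls, 6 were tested in CD45 adipose and none was called by edgeR's test, at -1.67 to -0.36. Compartments of a biopsy share their animal and time, so these are not independent repeats. In each of them a scarce probe that fell could pass the filter through its 0 h sums alone. The other 29 falls are by this division the ones not called in PanCK epidermis; the 28 tested there had a median change of -0.35, and 25 were below 0.

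CD45-positive areas of the same layer, which were selected for leukocytes, were compared to ask whether epithelial and leukocyte areas changed differently. No probe differed in its 6 h change between PanCK and CD45 deep dermis (0 of 1598, 0%, edgeR's quasi-likelihood test), with 72 at an unadjusted p under 0.05 and a smallest adjusted p of 0.334. Of the 31 rises, 16 were tested in CD45 deep dermis alone and 15 were above 0. The median log2 fold change of the 16 was 1.16, beside 1.76 in PanCK deep dermis, and that of all 624 probes tested there was 0.03. None of the 16 was called, among 84 probes with an unadjusted p under 0.05. A scarce probe could pass the filter there through its 6 h or 24 h sums alone, so the count above 0 is a description and not a test. Only 8 of the 36 falls were tested there, all below 0, with a median of -2.51 beside -1.73. A scarce probe that fell could pass the filter there through its 0 h sums alone, so these signs too are a description and not a test. Of these 8, 6 belong to the 7 falls shared with PanCK epidermis and described above. The 2 others changed by -1.91 and -1.81, so most falls have no value of their own in CD45 deep dermis. The CD45 sums were shallower, at 4244 to 81269 counts a segment at 6 h and 15215 to 47563 at 0 h, so a difference may have been missed.

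RTS0081318 in CD45 deep dermis hung on a single sum. It stood at 713, 936 and 761 CPM at 6 h in mice 208, 210 and 219, against 4419, 97.5 and 142 CPM at 0 h, so that mice 210 and 219 were higher at 6 h and mouse 208 lower. The difference between PanCK and CD45 deep dermis was 3.48 (SE 0.80, edgeR adjusted p = 0.334), and without mouse 208 it was 0.92 (edgeR adjusted p = 0.998). RTS0071276 was higher at 6 h in all 3 mice there, at 657, 929 and 644 CPM, against 223, 251 and 85.2 CPM at 0 h, a log2 fold change of 1.68 (SE 0.47, edgeR adjusted p = 0.133).

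The 24 h sums of the same fit show where each probe stood later. They are compared with the same 0 h or 6 h sums, so the values are set side by side and no overlap is read from them. Of all tested probes 22.6% were called at 24 h against 0 h (14.6% lower) and 10.2% at 24 h against 6 h. The rises had a median change over 0 h of 1.78 at 6 h and 1.85 at 24 h, and 13 of the 31 were higher at 24 h than at 6 h. Their levels thus stayed up in the median, at 62.7, 241 and 216 CPM at 0, 6 and 24 h. At 24 h against 6 h, 1 of the rises was called higher (3.21% of tested probes) and 2 lower (6.95%), and these 3 were chosen after their values were seen.

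RTS0063811 rose further. It averaged 128 ± 22.4 CPM at 0 h, 494 ± 181 CPM at 6 h and 1540.4 ± 234 CPM at 24 h (SD, n = 3 each), a log2 fold change of 1.64 from 6 h to 24 h (SE 0.26, edgeR adjusted p = 0.00132). RTS0069237 was up at 6 h and close to its 0 h level at 24 h, at 55.0 ± 10.8, 167 ± 34.1 and 54.0 ± 29.5 CPM at 0, 6 and 24 h (SD, n = 3 each). RTS0081468 had the same course, at 74.1 ± 20.9, 231 ± 84.2 and 79.8 ± 52.4 CPM. From 6 h to 24 h these 2 changed by -1.93 and -1.60 (edgeR adjusted p = 0.00565 and 0.00740). Their rise at 6 h was close to the threshold. That of RTS0069237 was not called without mouse 210 or 219 (edgeR adjusted p = 0.243 and 0.124), and that of RTS0081468 was not called without mouse 208, 210 or 219 (edgeR adjusted p = 0.0816, 0.135 and 0.0606). Neither was called without the replicate block (edgeR adjusted p = 0.0584 and 0.107) or by limma on mean log2(CPM + 1) values (adjusted p = 0.328 and 0.255). DESeq2's test did not call RTS0081468 either (adjusted p = 0.138).

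After 6 h the falls are described in the 2 sets formed by the epidermal calls. The 29 falls not called in PanCK epidermis had a median change over 0 h of -1.57 at 6 h and -2.32 at 24 h, and 23 of the 29 were lower at 24 h than at 6 h. RTS0069794, for one, averaged 3673, 970 and 472 CPM at 0, 6 and 24 h, a further log2 fold change of -1.16 from 6 h to 24 h (SE 0.27, edgeR adjusted p = 0.0108), and 3 other falls were also called lower over that interval (6.95% of all tested probes). The 7 falls shared with the epidermis had a median of -1.62 at 6 h and -0.88 at 24 h. All 7 stood higher at 24 h than at 6 h in the deep dermis, by 0.66 to 0.87, although none of these increases was called by edgeR's test, and 4 of the 7 were still called lower than at 0 h (14.6% of all tested probes). In PanCK epidermis the same 7 changed by -3.49 to -2.10 over 0 h at 24 h, beside -3.17 to -1.57 at 6 h. Neither the course of the 7 against the other 29 nor that of the 7 between the layers was tested.

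**Figure D5:**
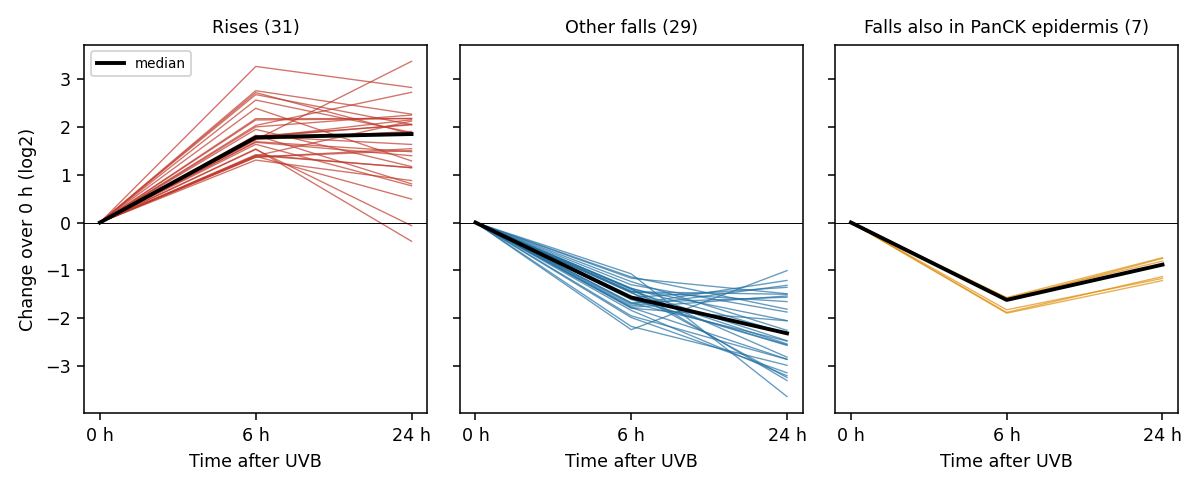
Change over 0 h (log2) at 6 h and 24 h in PanCK deep dermis for the 31 rises, the 29 falls not called in PanCK epidermis and the 7 falls called there too; each thin line is a probe and the black line the median. The medians are 1.78 and 1.85, -1.57 and -2.32, and -1.62 and -0.88 at 6 h and 24 h.

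The spread of the counts over the probes was described by shares, which 3 mice are too few to test. The 100 most abundant probes held 12.4% ± 1.49 of counts at 6 h, against 12.3% ± 0.72 at 0 h, and the 5000 scarcest probes held 11.9% ± 0.99 at 6 h, against 11.9% ± 0.29 at 0 h (SD, n = 3 each). Both comparisons gave p = 1 in an exact two-sided permutation within mice, which cannot go below 0.25 with 3 mice. Over the 20 most abundant probes the share was 5.02% ± 0.42 at 6 h, against 5.60% ± 0.54 at 0 h, lower in 3 of 3 mice (p = 0.25, exact).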

How the data were processed

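The authors deposited whole-number counts for each probe in each segment, from GeoMx NGS Pipeline 2.3.3.10 as stated in the file headers. Totals were 1.13% of aligned reads in the median segment, so the counts were taken as deduplicated molecules, a point on which the headers are silent. The sources used here name no probe panel, aligner or genome build. No table used here pairs the probe identifiers with genes, so probes are named by identifier: the 2 rises and 2 falls with the smallest p, the called differences from PanCK epidermis with the smallest p, and, after their values were seen, at most 2 per direction behind counts of 5 or fewer and the 2 ends of an identifier stretch.

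Counts were summed per mouse, compartment and time. Each compartment was fitted over 0, 6 and 24 h in edgeR 4.0.16 under R 4.3.3, blocked by mouse: TMM scaling, filterByExpr with a minimum count of 10, the quasi-likelihood F test and Benjamini-Hochberg adjustment over all tested probes, called under 0.05. Differences between compartments were tested as the compartment-by-6 h coefficient with the biopsy (mouse and time) as a block. Standard errors are the size of the log2 fold change over the square root of F. Pairing follows the labels, where the mouse numbers recur at each time; whether they are the same animals sampled serially is not stated, as the design text gives only 3 per group, and the block assumes it. Deviations from the group means correlated within a mouse with r of -0.01 to 0.17 across probes (median 0.13). Alternatives used limma 3.58.1 and DESeq2 1.42.0, and the functions were tested on simulated data. Omission of the deepest segment was added after seeing the data. The members, lists and tests were chosen with earlier results of these data known. Segment totals in the series ranged from 4244 to 256121. Limits at 0 counts cover counting error only.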

Additional observations from a re-analysis of the deposited data

Results flagged for a closer look

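At 0 h, 1 segment of RTS0081318 (620 CPM, mouse 208), 1 of RTS0068986 (798 CPM, mouse 210) and 1 of RTS0068906 (111 CPM, mouse 219) lay far above the other 5 segments of their group by Dixon's criterion. The value of RTS0068906 rests on very few counts. Its segment held 18042 counts in all, and the whole 0 h sum of mouse 219 held 4 counts of this probe. Of the 18 groups of 6 segments examined, 4 stood out by that criterion. Chance gives about 1 in 20 if values are normally distributed, which was not tested. The fourth was the total count of the 6 h segments, where a segment of mouse 210 held 197481 counts. Without that segment 99 probes were called in place of 67 (38 higher and 61 lower, of 1271 tested), and 57 of the 67 were called again in the same direction.

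The 6 h change differed between the layers by the direct test, PanCK deep dermis minus PanCK epidermis, for RTS0081318 by 3.39, for RTS0071276 by 2.26 and for 1 further probe by 1.84 on the log2 scale.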

How the results depend on the processing

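The count of called probes at 6 h against 0 h stayed within 1.5 times of 67 with DESeq2's size factors, upper quartile scaling, scaling to the scarcest probes, the filter at 2 times their level, the 0 h and 6 h sums alone, and no replicate block (47; the pairing is that of the mice). It was 110 with no filter (of 20175), 28 with DESeq2's test (all 28 among the 67) and 11 with limma on mean log2(CPM + 1) (9 higher, 2 lower, all among the 67). With a mouse left out it ranged from 14 (of 1158 tested, without mouse 210) to 104 (of 3114 tested, without mouse 208). The count of differences from PanCK epidermis, 3, became 29 with scaling to the scarcest probes, 29 with no filter (19 higher, 10 lower) and 1 with no replicate block. It was 4 with upper quartile scaling (3 higher, 1 lower). With a mouse left out it was 3 of 6990 without mouse 208 (2 higher, 1 lower) and 1 of 2726 without mouse 210 (higher). Without mouse 219 it was 13 of 8072 (5 higher, 8 lower). The count of differences from CD45 deep dermis, 0 in edgeR's test, became 6 with no filter and 0 to 5 with a mouse left out (4 without mouse 208, 5 without mouse 210). For 6 h against 0 h in PanCK deep dermis, omission of shallow segments gave no value of its own, since none of its segments lay under the limit; without the 1 shallow segment of CD45 deep dermis (mouse 219, 6 h), an alternative added after seeing the data, the count for CD45 deep dermis stayed 0 in edgeR's test (67 of 1645 at an unadjusted p under 0.05). The cause of these changes was not tested. The 6 h minus 0 h difference in the share held by the 100 most abundant probes, 0.125 percentage points, was -0.582 for 20 probes and -0.308 to 0.426 with a mouse left out. For the 5000 scarcest probes it was -0.00275, for the 2000 scarcest 0.0624, and -0.368 to 0.604 with a mouse left out. None of the 11 named probes reversed its 6 h change, and neither of the 2 named differences its sign, where an alternative gave a value.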
